A study of Mus musculus with 4 samples.

Results

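The 10 loci described here are those of the genes Cxcl12, Kitl, Lepr, Angpt1, Vcam1, Ebf1, Ebf3, Foxc1, Il7 and Tnfsf11, factors and regulators with which bone marrow stroma keeps blood stem cells and their progeny. Their chromatin was measured by ATAC-seq, an assay that tags accessible DNA with a transposase, in MSCs (mesenchymal stem cells) grown from hind-limb bones of wild-type male C57BL/6N mice aged 3 to 5 months. After collagenase digestion, all cells were first expanded in 2% O2 and sorted as CD45-/TER-119-/CD140a+/Sca-1+, and 2 libraries were then made from cells returned to 2% O2 (hypoxia) and 2 from cells moved to 21% O2 (normoxia) for a week. The cells were cultured in flasks and sorted free of CD45+ and TER-119+ blood cells. The study describes the 2 libraries of a group as biologically independent experiments, which the labels do not detail. It split the sorted population between the 2 oxygen levels, and whether same-numbered libraries share a sort is not given. A peak was a member when it overlapped a gene or the 20 kb on either side of it in the GENCODE M21 annotation. This gave 143 of the 128055 peaks in the table, of which 12 were promoter peaks within 1 kb of the start of a protein-coding transcript, 101 lay elsewhere in the gene body and 30 in the flanks.

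Stromal cells around marrow sinusoids, marked by the leptin receptor, secrete CXCL12, which retains blood stem cells in the marrow, and KIT ligand, which sustains them. Angiopoietin-1 acts on TEK on vessels and blood stem cells, interleukin-7 drives early lymphocyte growth, RANK ligand (Tnfsf11) drives osteoclast formation, and VCAM1 holds blood cells through integrin α4β1. The transcription factors EBF1, EBF3 and FOXC1 maintain the stromal identity of these cells and, in marrow, the expression of several of the factors above.

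The starts of the mesenchymal genes examined were open, and most of the blood genes examined had no promoter peak. All 8 mesenchymal genes examined had a promoter peak, among them the sort genes Pdgfra (354.9 and 328.1 in hypoxia, 184.4 and 214.9 in normoxia) and Ly6a. The blood genes Ptprc, Itgam, Cd79a and Cd3e and the endothelial gene Cdh5 had none, and the peaks of Spi1 and Klf1 were at 7.87 to 59.1. The endothelial genes Pecam1 (14.5 and 20.1 in hypoxia), Kdr (25.1 and 27.2) and Tek (53.1 and 49.3) had promoter peaks. So did the adipocyte genes Adipoq and Plin1 and the osteoblast genes Ibsp and Bglap. The mesenchymal gene Eng (28.3 and 17.3 in hypoxia) was below Klf1 in every library, so these markers alone do not settle the cell type. Marker values are summed over the promoter peaks of a gene. These and all later values are the reads in a peak per 10000000 reads of the library and are not divided by the width of the peak. Library totals were 26680936 to 29965523 reads. Nuclear peaks held 49.2% and 53.2% of the total in the hypoxia libraries against 31.0% and 35.2% in the normoxia ones, and the median peak of the whole table was 0.44 lower on the log2 scale in normoxia as deposited and -0.0040 once the libraries had been scaled by RLE (relative log expression) size factors. Fold changes below compare normoxia with hypoxia in RLE-scaled log2(value + 1), that is, relative to that shift, and a peak was called by limma at a false discovery rate (FDR) under 0.01 over all peaks.

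The upstream DNA of 4 members is shown because the results below turn on it: the promoters of Kitl and Ebf3 were called lower in normoxia, that of Cxcl12 was close to the threshold, and Lepr had no peak at its start. Each sequence is the 250 bases before the first GENCODE start in the mouse genome GRCm38.p6 (mm10), written 5′ to 3′ in the direction of transcription. Capitals mark GCGTG, a core of the hypoxia response element bound by HIF, on either strand.
Kitl, chr10:100015380-100015629, plus strand: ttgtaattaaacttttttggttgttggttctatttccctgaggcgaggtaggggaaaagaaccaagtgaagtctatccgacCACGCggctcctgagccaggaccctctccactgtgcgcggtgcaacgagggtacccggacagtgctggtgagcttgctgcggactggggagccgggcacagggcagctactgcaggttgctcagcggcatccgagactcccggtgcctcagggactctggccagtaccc
Ebf3, chr7:137314446-137314695, minus strand: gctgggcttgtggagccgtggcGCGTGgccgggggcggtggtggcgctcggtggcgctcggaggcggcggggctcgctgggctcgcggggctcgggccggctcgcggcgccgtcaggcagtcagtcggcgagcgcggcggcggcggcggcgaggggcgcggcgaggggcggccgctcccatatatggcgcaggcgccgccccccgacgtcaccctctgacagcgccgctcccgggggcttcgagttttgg
Cxcl12, chr6:117168285-117168534, plus strand: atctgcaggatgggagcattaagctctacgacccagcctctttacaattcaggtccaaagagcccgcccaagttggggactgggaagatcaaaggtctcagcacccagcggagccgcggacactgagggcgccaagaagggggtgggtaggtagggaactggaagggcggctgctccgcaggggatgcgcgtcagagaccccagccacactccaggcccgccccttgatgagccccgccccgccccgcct
Lepr, chr4:101717154-101717403, plus strand: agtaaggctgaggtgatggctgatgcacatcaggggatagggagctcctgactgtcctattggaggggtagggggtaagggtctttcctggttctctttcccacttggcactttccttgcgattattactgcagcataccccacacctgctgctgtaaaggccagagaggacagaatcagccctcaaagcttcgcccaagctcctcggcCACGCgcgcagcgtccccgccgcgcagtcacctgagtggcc
GCGTG was present once in the windows of Kitl, Ebf3, Lepr, Ebf1 and Foxc1 and absent from those of Cxcl12 and Tnfsf11, and 32.3% of the windows of 21864 protein-coding genes held it. None of these 7 windows held ACGTG (17.4% of all windows), the AP-1 motif TGANTCA (5.93%) or the EBF motif, TCCC and GGGA separated by any 2 bases (0.906%), on either strand, and no match overlapped another. Angpt1, Vcam1 and Il7 had no entry in the promoter list used, so their windows entered only the shares over all windows. The Ebf3 window was 80.0% G and C with 43 CpG, the Kitl window 59.2% with 13, the Cxcl12 window 64.4% with 14 and the Lepr window 58.4% with 10, against a median of 54.4% and 8 over all windows. The Lepr window, without a peak, was thus close in G and C content to the Kitl window, which lies in one.

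The promoters of Kitl, Il7 and Ebf3 fell in normoxia, 1 peak in an intron of Il7 rose, and the other 139 member peaks were not called. The 3 lower calls were 3 of the 12 promoter peaks, where 16.7% of all promoter peaks were called lower, and 3 of the 143 member peaks, where 4.57% of all peaks were called lower and 1.77% higher. The share among member promoters is therefore near that of promoters at large, and the share among member peaks is below the background. The 2 normoxia libraries were below both hypoxia libraries after scaling at 42 member peaks (29.6% of all peaks did) and above them at 37 (27.4% of all peaks), so the members as a group were placed much as the table was.

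The location of a peak went with its direction. The 12 promoter peaks had a median log2 fold change of -0.30, against -0.27 over all 17670 promoter peaks. Below 0 were 11 of the 12, and 78.3% of all promoter peaks. Of the 10 member peaks over a start, 9 were below 0, and the other 2 promoter peaks were shoulders assigned to hypoxia alone by the caller. The 101 gene body peaks had a median of -0.03 (+0.05 over all gene body peaks) and the 30 flanking peaks +0.04 (+0.04 over all intergenic peaks). As deposited, with no scaling, the medians were -0.78, -0.46 and -0.32, and with each library set to an equal total over peaks they were -0.02, +0.25 and +0.32, so the promoter median stayed below those of the other classes while the sign of the other classes depended on the scaling. Strength moved with the promoter result too. Over all peaks the median fold change declined from +0.24 in the third decile of mean value to -0.33 in the highest decile, which held 5 of the 12 member promoters. The lowest decile, with mean values up to 3.77, held the 2 narrow promoter shoulders and was at -0.48. Peaks assigned to hypoxia alone, chosen by the caller for their difference, had a median value of 1.82 and a median change of -1.05, and their part in this decile was not tested. The part of peak strength in the promoter falls was not tested.

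All 4 calls depended on the scaling and on the libraries. With edgeR on the recovered reads the same 4 peaks were called, along with the Cxcl12 peak 7.6 kb upstream and 1 Ebf1 peak 153.7 kb past the start, both higher. With equal totals the promoters of Kitl, Il7 and Ebf3 stood at -0.36 (FDR 0.0754), -0.35 (FDR 0.0646) and -0.20 (FDR 0.138), still lower but not called. Without hypoxia library 1, and likewise without hypoxia library 2, limma called 0 of all 128055 peaks, with 24119 and 24294 at an unadjusted p under 0.05. The Kitl call was also lost without normoxia library 2 (-0.46, FDR 0.0322) and the calls of Il7 and Ebf3 without normoxia library 1 (-0.49, FDR 0.0253, and -0.32, FDR 0.0196).

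Per kb of peak width, the 10 peaks over member starts fell into an order that was not the order of the calls. In hypoxia Il7 stood highest at 57.6 ± 2.02 per kb (SD, n = 2), followed by Angpt1 at 53.5 ± 9.98 and Ebf3 at 43.7 ± 0.54, and the first pair did not differ beyond their spread. Cxcl12 (34.3 ± 1.16), Foxc1 (31.1 ± 0.68), Tnfsf11 (28.9 ± 2.07), Kitl (25.8 ± 1.06) and Ebf1 (24.8 ± 0.10) formed the middle, with Foxc1 and Tnfsf11, and Kitl and Ebf1, within their spread of each other. Vcam1 (19.9 ± 5.27) and the internal start of Ebf3 (14.8 ± 0.75) were lowest. In normoxia Angpt1 was at 32.8 ± 3.36 and Il7 at 26.6 ± 5.57, again with overlapping libraries, and Kitl, at 11.8 ± 1.45, was near the internal Ebf3 start at 11.2 ± 2.24. Kitl thus went from the level of Ebf1 to that of the lowest member start.

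**Figure D1:**
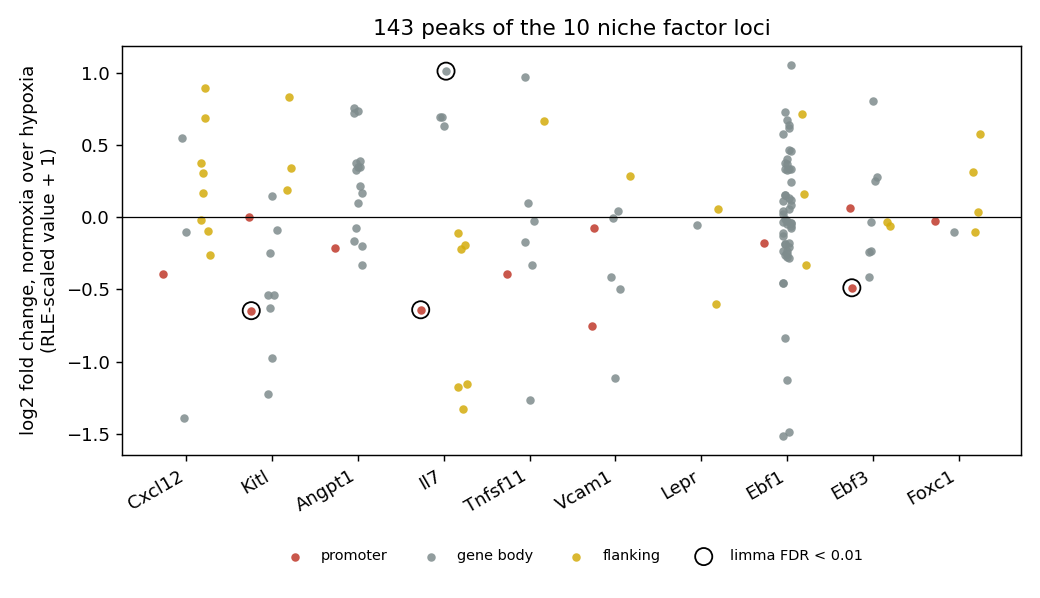
Log2 fold change (normoxia over hypoxia, RLE-scaled value + 1) of each of the 143 member peaks, by gene and by location; each point is a peak and circles mark the 4 peaks with a limma FDR under 0.01. Promoter points lie at or below 0 in all loci except for the internal Ebf3 start (+0.06), while gene body points lie on both sides of 0.

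Of the secreted factors, Kitl and Il7 fell at their starts by amounts that differed by less than their standard errors. The promoter peak of Kitl (chr10:100015101-100019200, over the first exon) held 102.6 and 108.8 in the hypoxia libraries against 52.5 and 44.1 in the normoxia ones. The groups did not overlap, and on the deposited scale the mean was 54.3% lower in normoxia. After scaling the fold change was -0.65 ± 0.15 (SE, FDR 0.00293). A shoulder of 300 bp next to it, assigned to hypoxia alone by the peak caller, stood on 22 reads or fewer in every library and gave -0.00055 ± 0.55.

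Inside Kitl the peaks did not move together. The strongest was an intronic peak 48.6 kb past the start (chr10:100064501-100066800), with 71.5 and 81.9 in hypoxia against 61.8 and 59.7 in normoxia, and its scaled change was +0.14 ± 0.14 (FDR 0.538). A peak 14.5 kb past the start held 47.8 and 60.9 against 23.6 and 29.4 and gave -0.54 ± 0.17, close to the promoter, but its FDR of 0.0331 missed the threshold. Downstream of the gene the 2 flanking peaks had positive fold changes, +0.83 ± 0.30 (FDR 0.0538) for the one beside the gene end. Promoter reads made up 29.3% and 28.3% of the Kitl locus in hypoxia against 23.3% and 19.8% in normoxia, with no overlap between the groups.

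Il7 was the only member with a call in each direction, and these were neighbouring peaks. The Il7 promoter peak (chr3:7612101-7614000) held 112.2 and 106.8 in hypoxia against 43.1 and 58.1 in normoxia, with no overlap between the groups. Its scaled change was -0.64 ± 0.14 (FDR 0.00274). A non-coding gene, Gm16685, starts at the same peak, and ATAC signal has no strand, so the starts cannot be told apart. The same limit holds for Angpt1, Ebf1 and Vcam1. Non-coding transcripts of Gm17473, Gm37695 and Gm43109 start within 1 kb of their respective promoter peaks.

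The intronic Il7 peak (chr3:7609701-7610900) began 1200 bp from the promoter peak. It held 12.7 and 27.2 in hypoxia against 22.1 and 35.0 in normoxia, so that the deposited values of the groups overlapped, and the scaled values, 11.2 and 22.1 against 27.3 and 39.5, did not. The scaled change was +1.01 ± 0.24 (FDR 0.00500) and stood on 36, 80, 59 and 105 reads. Without hypoxia library 1 it was +0.54 (FDR 0.314), without hypoxia library 2 +1.46 (FDR 0.168) and without normoxia library 2 +0.76 (FDR 0.0612), so the call rested on those libraries while the direction was positive in each.

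The ratio of the Il7 promoter to the intronic peak does not depend on scaling. The pair was chosen for its opposite calls, so the ratio is a description with no test. It was 8.81 and 3.93 in the hypoxia libraries against 1.95 and 1.66 in the normoxia ones. The other 3 peaks in the Il7 gene body had fold changes of +0.69, +0.69 and +0.63 with FDRs from 0.0646 to 0.104, so all 4 pointed upward and 1 was called. The share of promoter reads in the Il7 locus was 49.0% and 42.9% in hypoxia against 29.3% and 32.7% in normoxia.

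The centre of the intronic Il7 peak differs in composition from the promoter windows above. Its central 200 bases (plus strand of mm10, the strand opposite to Il7 transcription) hold 33.5% G and C, against a median of 46.5% over the centres of 124141 peaks at least 200 bp wide. They contain none of the motifs searched, which were found in 10.2% (ACGTG), 12.3% (GCGTG), 15.8% (AP-1) and 0.722% (EBF) of those centres, so no letter is in capitals.
Il7 intronic peak, chr3:7610201-7610400, plus strand: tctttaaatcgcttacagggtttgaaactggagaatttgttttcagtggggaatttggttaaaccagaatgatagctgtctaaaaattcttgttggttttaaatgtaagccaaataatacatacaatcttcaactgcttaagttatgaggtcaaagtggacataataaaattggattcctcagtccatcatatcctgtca

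**Figure D2:**
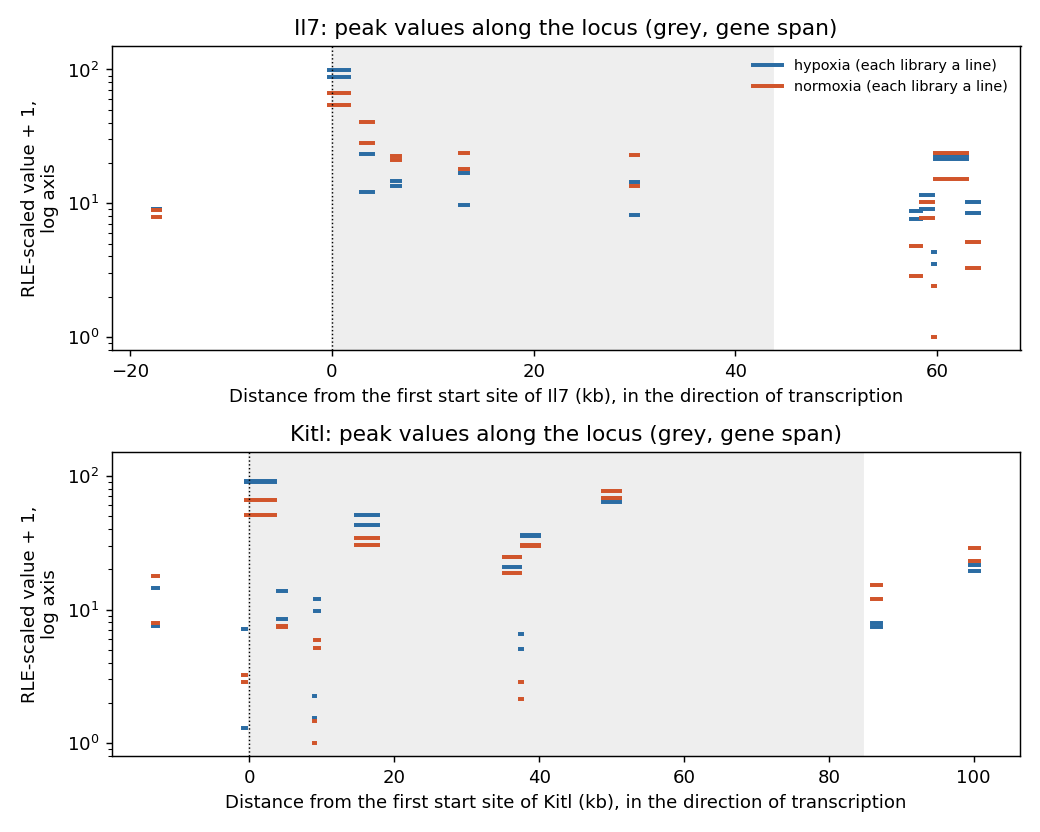
Peak values (RLE-scaled value + 1, log axis) along Il7 (top) and Kitl (bottom) against the distance from the first start site in kb, with each line a library at the width of its peak, blue for hypoxia and red for normoxia, and grey for the gene. At both starts the normoxia lines lie below the hypoxia lines, and at the Il7 peak next to the start they lie above.

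Downstream of Il7 the flank reaches the gene Zc2hc1a, and 5 peaks there sit beside each other. Of these, 3 were assigned to hypoxia alone by the caller and had fold changes of -1.18, -1.33 and -1.15 on values of at most 11.2, with the lowest FDR at 0.0285. They were shoulders of 2 peaks called in both groups, which changed by -0.22 and -0.20. The caller chose the 3 shoulders by a difference between the groups. Their larger fitted changes than at the centres are thus a description, and no peak was called.

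Cxcl12, the retention signal for blood stem cells, had the widest of the 143 member peaks and a promoter that missed the threshold. The promoter peak (chr6:117166701-117170500) held 127.4 and 133.6 in hypoxia against 70.5 and 71.7 in normoxia. The groups did not overlap, and the scaled change was -0.39 ± 0.13 (FDR 0.0354). The strongest peak of the locus was not the promoter but a 13.4-kb block over the later exons and the 3′ end (chr6:117172901-117186300), with 265.4 and 257.7 in hypoxia against 164.2 and 185.5 in normoxia. Its scaled change was only -0.10 ± 0.11 (FDR 0.554), and its scaled values differed little between the groups, at 233.9 and 209.8 against 202.7 and 209.4.

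Per kb of width the Cxcl12 promoter was the more open of the pair, at 34.3 ± 1.16 in hypoxia (SD, n = 2) against 19.5 ± 0.41 for the block. In normoxia the promoter was at 18.7 ± 0.24 and the block at 13.0 ± 1.13. With 12 peaks in 52.8 kb the locus was denser in peaks than 98.8% of protein-coding loci. Of the 8 flanking peaks, the one 7.6 kb upstream was the nearest to a call, at +0.90 ± 0.27 (FDR 0.0227). It lies at the start of the non-coding gene D030044L04Rik, and its values of 9.91 and 10.5 in hypoxia against 11.2 and 18.4 in normoxia were small beside those of the promoter.

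Angpt1 was open at its start in every library and had no call. The promoter peak (chr15:42674001-42678500) held 208.8 and 272.3 in hypoxia against 136.8 and 158.2 in normoxia. The hypoxia libraries differed from each other by more than the normoxia libraries did, and the scaled change was -0.22 ± 0.11 (FDR 0.201). Its 15 gene body peaks had a median of +0.32, against +0.05 over all gene body peaks. After scaling, 7 of the 15 (46.7%) had both normoxia libraries above both hypoxia libraries, against 30.2% of all gene body peaks. As deposited, 0 of the 15 were above in this way and 7 were below, against 7.38% and 55.6% of all gene body peaks. The nearest to a call lay 204.0 kb inside the gene, with 13.4 and 20.4 in hypoxia against 21.0 and 19.7 in normoxia (+0.73 ± 0.23, FDR 0.0296). The share of promoter reads in the locus went from 40.7% and 42.2% to 34.7% and 35.1%.

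At Tnfsf11 the picture was like that at Cxcl12. The promoter peak (chr14:78305301-78308700) held 93.4 and 103.4 in hypoxia against 46.5 and 61.4 in normoxia, which did not overlap, with a scaled change of -0.39 ± 0.14 (FDR 0.0556). The strongest other peak lay in an intron 18.0 kb past the start, with 52.7 and 68.3 in hypoxia against 43.9 and 48.4 in normoxia, and changed by +0.10 ± 0.16 (FDR 0.732). Tnfsf11 was thus another locus with a negative fold change at the start and none to speak of at the leading internal peak, though neither was called.

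**Figure D3:**
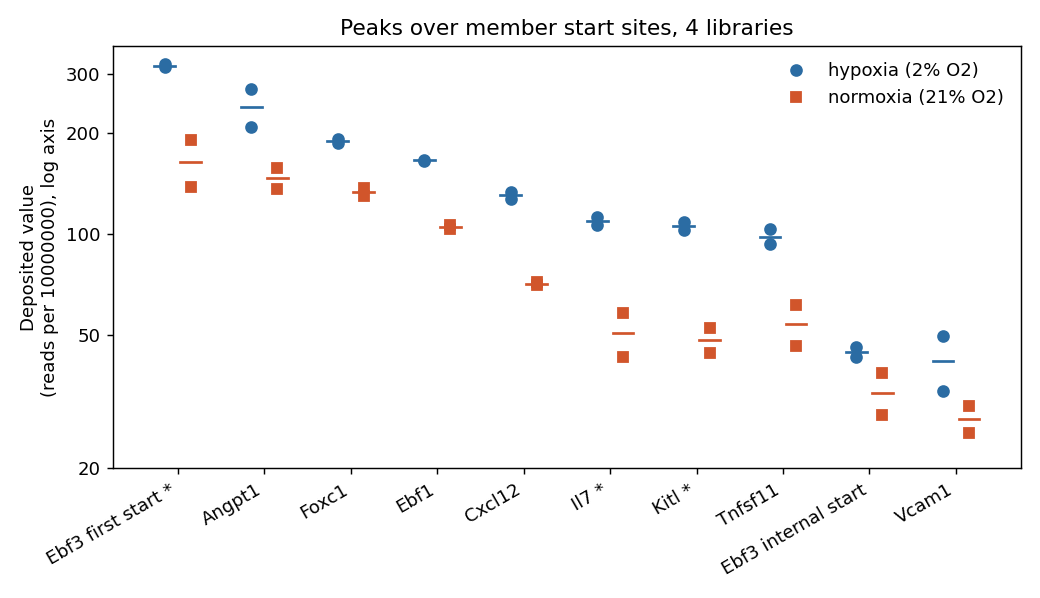
Deposited values (reads per 10000000 library reads, log axis) of the 10 member peaks that lie over a start site, with blue circles for the 2 hypoxia libraries, red squares for the 2 normoxia libraries, lines for the means and asterisks for a limma FDR under 0.01. All 10 have both normoxia libraries below both hypoxia libraries on this scale, which includes the lower share of reads in peaks in normoxia, as had 86.0% of all promoter peaks.

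At Vcam1, the adhesion molecule, the leading internal peak had a larger fitted difference than the start. The peak over its start (chr3:116128401-116130500) held 34.0 and 49.6 in hypoxia against 25.5 and 30.7 in normoxia. The scaled values overlapped, and the change was -0.07 ± 0.19 (FDR 0.836). The strongest peak of the locus lay 13.3 kb into the gene (chr3:116113301-116115600) with 109.7 and 137.4 in hypoxia against 67.1 and 64.7 in normoxia. It did not overlap between the groups and changed by -0.41 ± 0.13, with an FDR of 0.0340. A narrow peak beside the start, assigned to hypoxia alone, held at most 5.78 and changed by -0.75 ± 0.44 (FDR 0.254).

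Lepr, whose protein marks niche stroma in the marrow, was nearly without peaks in these cultured cells. No peak lay within 1 kb of a protein-coding start, and 138 kb held 3 peaks in all, or 2.17 per 100 kb, which was more than 19.6% of protein-coding loci and below the median of 7.46. The peak nearest to the start, 1.49 kb inside the gene, held 13.8 and 15.6 in hypoxia against 9.00 and 11.3 in normoxia (-0.06 ± 0.26, FDR 0.915). The strongest lay 8.9 kb upstream (chr4:101707401-101708500) with 12.4 and 21.8 in hypoxia against 11.6 and 13.0 in normoxia (+0.06 ± 0.26, FDR 0.916). Both overlapped between the groups after scaling, although the deposited values of the peak inside the gene did not. The third peak, 17.4 kb upstream, held 11.0 and 17.0 in hypoxia against 6.75 and 5.67 in normoxia, without overlap on either scale, and had the largest fitted change of the locus (-0.60 ± 0.30, FDR 0.180).

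Of the regulators, Ebf3 fell at its first start, and its locus total had the lowest FDR of the 10. The peak over its first start (chr7:137308301-137315600) held 316.0 and 321.6 in hypoxia against 138.7 and 190.9 in normoxia. The hypoxia libraries were close to each other, the normoxia libraries were both lower and further apart, and the scaled change was -0.49 ± 0.11 (FDR 0.00309). Setting the libraries equal by cyclic loess, which fits the difference against strength, gave -0.10 (FDR 0.572), and equal totals gave -0.20 (FDR 0.138). The direction was the same under both, and the call was lost.

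No other Ebf3 peak was called, and 7 of the 11 peaks of the locus had negative fold changes. A second, internal start (chr7:137266001-137269000) held 46.0 and 42.8 in hypoxia against 28.9 and 38.4 in normoxia, with overlap after scaling (+0.06 ± 0.17, FDR 0.855). The strongest peak outside the promoters lay 2.5 kb upstream of the first start (chr7:137316901-137323400), at 87.8 and 93.2 in hypoxia against 52.1 and 74.4 in normoxia (-0.06 ± 0.14, FDR 0.831). The gene body peak nearest to a call held 69.7 and 83.6 against 39.0 and 42.7 (-0.42 ± 0.15, FDR 0.0563). Promoter reads, both starts together, were 51.1% and 48.8% of the locus in hypoxia against 43.7% and 45.6% in normoxia.

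Ebf1, with 55 peaks over 431 kb, supplied the most member peaks, and none was called. The promoter peak (chr11:44616001-44622700) held 165.6 and 166.6 in hypoxia against 103.4 and 106.5 in normoxia (-0.18 ± 0.12, FDR 0.320). The strongest peak of the gene was 325.8 kb past the start in an intron (chr11:44943101-44949400), with 207.0 and 232.5 in hypoxia against 128.2 and 131.2 in normoxia (-0.28 ± 0.11, FDR 0.0877). Both separated the groups on the deposited and the scaled values, though neither change passed the test.

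The 54 other Ebf1 peaks had a median change of +0.01, with 27 on each side of 0. Of the 9 with a mean value above 50, 6 had negative changes, and of the 45 below, 21 did. Strong peaks within the gene differed from one another: the peak 105.1 kb past the start held 98.4 and 103.7 in hypoxia against 56.2 and 49.4 in normoxia (-0.45 ± 0.14, FDR 0.0293), whereas the one 233.6 kb past it held 74.0 and 82.6 in hypoxia against 72.3 and 83.4 in normoxia (+0.46 ± 0.14, FDR 0.0190). The latter kept its deposited level in normoxia although its libraries had fewer reads in peaks.

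**Figure D4:**
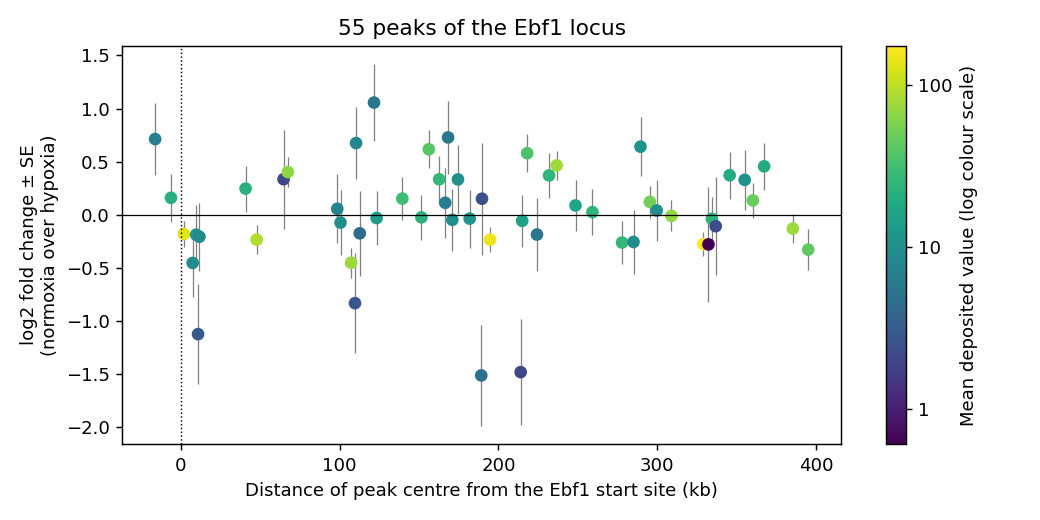
Log2 fold change ± SE (normoxia over hypoxia, RLE-scaled value + 1) of the 55 Ebf1 peaks against the distance of their centres from the start in kb, with the colour giving the mean deposited value on a log scale. Peaks lie on both sides of 0 along the whole gene, and the lowest points are weak peaks.

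Foxc1, a single-exon gene whose product promotes Cxcl12 expression in marrow stroma, had values at its start that did not separate the groups. Its promoter peak (chr13:31803201-31809300) held 192.9 and 187.0 in hypoxia against 130.1 and 137.8 in normoxia. The scaled values, 169.9 and 152.3 against 160.6 and 155.5, overlapped (-0.03 ± 0.11, FDR 0.913). The strongest other peak lay 11.2 kb past the start within the neighbouring gene Gmds (chr13:31817801-31823100) at 61.2 and 81.3 in hypoxia against 55.5 and 48.4 in normoxia (+0.03 ± 0.16, FDR 0.915).

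Summed over the whole locus, Ebf3 was the only member called. Its total was 708.8 and 746.2 in hypoxia against 383.4 and 502.2 in normoxia, a scaled change of -0.25 ± 0.08 (FDR 0.00860). Of all 18696 protein-coding loci with a peak, 27.9% were called lower and 2.4% higher and the median change was -0.16, so that 1 lower call and 0 higher calls among 10 is a smaller share than the background. At an unadjusted p under 0.05, limma gave lower totals for Ebf3, Kitl (-0.23 ± 0.09, FDR 0.0357) and Vcam1 (-0.23 ± 0.10, FDR 0.0541) and no higher one. Of all 18696 loci, 9341 had such a limma p in either direction. With edgeR on the recovered reads no member was called at the FDR threshold, while 5163 of all loci were called lower and 457 higher. Angpt1 was at +0.03, Foxc1 and Ebf1 at -0.01, and the other 4 between -0.17 and -0.08.

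The Ebf3 total turned on scaling and on single libraries. Its change was +0.04 (FDR 0.709) with equal totals, and -0.11 (FDR 0.293) without normoxia library 1. Without hypoxia library 1 or 2 it was -0.24 (FDR 0.124) or -0.28 (FDR 0.0619).

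**Figure D5:**
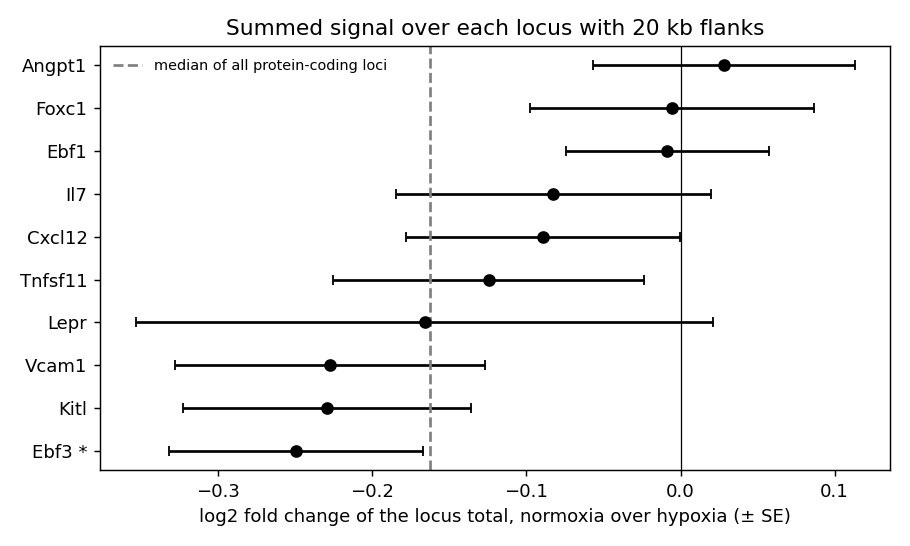
Log2 fold change ± SE (normoxia over hypoxia) of the summed, RLE-scaled signal of each member locus with its 20 kb flanks; the dashed line is the median of all protein-coding loci (-0.16) and the asterisk marks a limma FDR under 0.01. Ebf3, Kitl and Vcam1 lie furthest below 0, and Angpt1, Foxc1 and Ebf1 lie at 0.

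Within a library, the share of promoter reads in the locus needs no scaling. It was lower in both normoxia libraries than in both hypoxia libraries for 7 of the 9 members with a promoter peak (Cxcl12, Kitl, Angpt1, Il7, Tnfsf11, Ebf1 and Ebf3) and overlapped for Vcam1 and Foxc1. Over 14807 protein-coding loci with a promoter peak and another peak, 50.1% were lower in this way and 14.1% higher. Most members thus had a smaller promoter share in normoxia, as the larger part of all loci with a separation did. In a bulk library, fewer cells open at a site and less opening per cell cannot be told apart.

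Peaks that the caller assigned to hypoxia alone made up 16 of the 143 member peaks (11.2%, against 6.84% of all peaks). All 16 touched another peak, with a median width of 300 bp and at most 33 reads in any library. The 2 normoxia libraries were below both hypoxia libraries at 14 of them (87.5%, against 71.3% of the 8754 such peaks in the table), and the median change was -1.14 (-1.05 over all such peaks). Neither limma nor edgeR called any of the 16, although limma called 721 of the 8754 lower, while 10 of the 16, and 4540 of the 8754, had an unadjusted limma p under 0.05, and a fit with the replicate number as a block called 1, in Ebf1 (-1.52, FDR 0.00560). Since the caller chose them by this difference, these changes are a description only. Peak width was not measured per group, as a single peak set was called over both.

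Other genes of the niche and the receptors on the blood side were taken as lists. Among 15 further stromal signals and regulators, 11 of 151 peaks (7.28%) were called lower and 1 higher (0.662%), against 4.57% and 1.77% of all peaks, and 5 of 14 promoter peaks were lower (16.7% over all promoters). The lower promoters were those of Jag1, a Notch ligand (353.0 ± 3.25 in hypoxia and 163.2 ± 18.8 in normoxia, SD, n = 2, change -0.64 ± 0.10, FDR 0.000116), Tgfb1, a growth factor (-0.57 ± 0.11, FDR 0.000834), Thpo, thrombopoietin (-0.54 ± 0.13, FDR 0.00471), Ebf2, a relative of Ebf1 and Ebf3 (-0.52 ± 0.12, FDR 0.00266), and Tnfrsf11b, the decoy receptor that binds the Tnfsf11 product (-0.51 ± 0.13, FDR 0.00828). The higher peak lay within Il15, a cytokine of lymphocytes, with 12.0 and 28.9 in hypoxia against 30.7 and 29.4 in normoxia (+1.11 ± 0.24, FDR 0.00226). Of the 3 EBF genes, the first starts of Ebf2 and Ebf3 were thus called lower, and that of Ebf1 was not.

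Among the 9 receptor genes, 2 of 56 peaks (3.57%) were called lower and 1 higher (1.79%), near the 4.57% and 1.77% of all peaks. They were the promoters of Cxcr4, the CXCL12 receptor (91.6 ± 5.99 in hypoxia and 44.7 ± 2.32 in normoxia, SD, n = 2, -0.55 ± 0.14, FDR 0.00926), and of Itgb1, the β chain of the integrin that binds VCAM1 (-0.55 ± 0.12, FDR 0.00199). The higher peak lay in the body of Tek, the receptor for angiopoietin-1 (+1.04 ± 0.17, FDR 0.000145). By locus total, Ebf2, Jag1, Spp1, Tgfb1 and Thpo of the first list and Cxcr4 and Il2rg of the second were lower and Il15 was higher, that is, 7 of 24 loci lower (29.2%), near the 27.9% of all loci. The spans of Spp1, Tgfb1, Thpo and Il2rg contain starts of other protein-coding genes, so their totals are not those of the named gene alone, whereas the spans of the 10 members contain no other protein-coding start.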

How the data were processed

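ATAC-seq libraries of mouse MSCs (2 in hypoxia, 2 in normoxia, grouped by the labels) were aligned by the authors to mm10 with Bowtie2 and cleared of duplicates with Picard (versions not given in the sources used here), and a single peak set was called over both groups with chromstaR. The deposited table holds a signal per peak and library, named RPKM by the authors, that was not divided by width: 100% of the values were whole multiples (tolerance 0.0001) of 10000000 divided by the library total. Reads were recovered from these steps. Whether they count fragments or read ends is not known, and the median peak held 33 to 48 reads, so weak peaks are imprecise.

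Values were divided by RLE size factors (1.13 and 1.23 in hypoxia, 0.81 and 0.89 in normoxia), and log2(value + 1) was tested with limma 3.58.1 in R 4.3.3 (lmFit, eBayes with trend and robust, two-sided). FDRs are Benjamini-Hochberg adjusted p-values over the 128055 peaks, with a threshold of 0.01. Locus totals were tested alike over 18696 protein-coding loci. The study ran edgeR on its table; since these values are not counts, edgeR 4.0.16 on the recovered reads is an alternative here. On simulated data with 200 changed peaks limma recovered 31% of 2-fold and 95% of 4-fold changes with 0 false calls, and for loci 98% and 100% with 1 false call. The changed features were drawn from the stronger ones, with as many raised as lowered. They were far fewer than the features called in the data, so recovery in the data, and at weak peaks, was not measured. Peaks named are every member promoter peak, every called member peak and, by mean value, the leading other peak of each locus; further peaks were named after their values were seen. Promoter peaks lay within 1 kb of a protein-coding start in GENCODE M21. Sequences came from the RefSeq GRCm38.p6 genome with pysam 0.24.0 in Python 3.11.15; 7 of the 10 members matched the promoter table used. The members and gene lists were chosen with earlier results of these data known. One marker gene is not reported here. Alternatives were 3 other scalings, pseudocounts of 0.1 and 5, a minimum mean of 5, each library left out, a replicate block, FDR under 0.05, eBayes without trend and robust, 5 kb flanks and 2 kb promoters.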

Additional observations from a re-analysis of the deposited data

How the results depend on the processing

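With 2 libraries per group and a normoxia signal that is lower over the whole table, calls rest on the scaling. In the simulation, recovery of 2-fold changes was 31% even among the stronger peaks, and peaks of a few reads carry little information. Lower member peaks numbered 3, and 32 as deposited, 0 with equal totals over peaks, 0 with cyclic loess, 0 with eBayes without trend and robust (where 0 of all peaks are called and 29293 have an unadjusted p under 0.05), and 12 at an FDR under 0.05. With a library left out, the peaks called lower were not always those of the main fit. Higher member peaks numbered 1, and 0 as deposited, 9 with equal totals, 2 with cyclic loess, 0 with a pseudocount of 0.1, 0 without trend and robust, 3 with edgeR on recovered reads and 7 at an FDR under 0.05. With a library left out, a peak called higher was not always the intronic Il7 peak. Lower loci numbered 1, and 10 as deposited, 0 with equal totals, 0 with cyclic loess, 0 without trend and robust, 0 with edgeR, 2 with 5 kb flanks and 2 at an FDR under 0.05, and 0 to 1 with a library left out. Higher loci numbered 0, and 3 with equal totals. The counts over the whole table moved with the scaling too. Of 128055 peaks, 5856 were called lower in the main fit, 30729 as deposited, 1078 with equal totals and 1681 with cyclic loess. Higher peaks numbered 2262, 501, 8798 and 1819 in that order. Of 18696 loci, 5209, 15265, 420 and 692 were lower, and 449, 38, 3589 and 661 were higher. The causes of these differences were not tested.

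The deviations of same-numbered libraries correlated at 0.011 over all peaks and at 0.030 over peaks with a scaled mean of at least 5. Such low values cannot show that the libraries were unpaired, since read noise in single libraries also lowers them. A fit with the replicate block called 4 member peaks lower and 3 higher, and 0 member loci lower, with Ebf3 at an FDR of 0.0107. Of all peaks it called 8468 lower and 3912 higher, against 5856 and 2262 in the main fit.

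The promoter median of -0.30 became -0.78 as deposited, -0.016 with equal totals, -0.068 with cyclic loess and -0.20 with promoters taken within 2 kb, and -0.40 to -0.24 with a library left out. The gene body median became -0.46 as deposited and +0.25 with equal totals, and the flanking median -0.32 and +0.32.

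Directions of small, uncalled changes turned with the scaling. As deposited, the sign became negative for the leading internal or flanking peaks of Kitl (-0.33), Lepr (-0.39), Foxc1 (-0.44) and Tnfsf11 (-0.37), the internal start of Ebf3 (-0.40) and the total of Angpt1 (-0.45). With equal totals it became positive for the start peaks of Angpt1 (+0.073), Vcam1 (+0.21), Ebf1 (+0.11) and Foxc1 (+0.26), the Kitl shoulder (+0.18), the leading other peaks of Cxcl12 (+0.19), Angpt1 (+0.12), Ebf1 (+0.011) and Ebf3 (+0.23), and the totals of Cxcl12 (+0.20), Kitl (+0.060), Lepr (+0.12), Vcam1 (+0.062), Ebf1 (+0.28), Ebf3 (+0.041), Foxc1 (+0.28), Il7 (+0.21) and Tnfsf11 (+0.17). With cyclic loess it became positive for the start peaks of Angpt1 (+0.14), Ebf1 (+0.12) and Foxc1 (+0.31), the Kitl shoulder (+0.24), the leading other peaks of Cxcl12 (+0.28), Ebf1 (+0.064) and Ebf3 (+0.15), and the totals of Cxcl12 (+0.16), Ebf1 (+0.12) and Foxc1 (+0.20), and negative for Lepr (-0.11). A pseudocount of 0.1 turned the Kitl shoulder (+0.43) and 5 kb flanks the Il7 total (+0.045).

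With each library left out in turn, where the lone library is assumed to vary like the other group, signs also turned for small changes. The start peaks ranged from -0.29 to +0.13 (Vcam1), -0.072 to +0.21 (internal Ebf3 start), -0.11 to +0.045 (Foxc1) and -1.21 to +1.17 (Kitl shoulder). The leading other peaks ranged from -0.28 to +0.37 (Lepr), -0.24 to +0.14 (Ebf3), -0.12 to +0.20 (Foxc1) and -0.041 to +0.22 (Tnfsf11), and the totals from -0.39 to +0.040 (Lepr), -0.088 to +0.13 (Angpt1), -0.058 to +0.051 (Ebf1) and -0.062 to +0.062 (Foxc1). The promoters of Kitl, Il7 and Ebf3 and the intronic peak of Il7 kept their direction under all 14 alternatives. Not all of these could turn it. The replicate block, eBayes without trend and robust, the minimum mean and the FDR under 0.05 leave the fold change as it was.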
